A study of Saccharomyces cerevisiae with 16 samples.

Results

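Of 5787 yeast array probes with a value in every sample, 56 moved to one side of their 0 h level in the first hours in medium with 500 µM phosphate and were on that same side at 23 h, in a strain called PHO84c and in the wild type (WT). They were chosen by their values. The change of a probe was its log2 value minus the mean of 0 h replicates 1 and 2 of the same strain. The early change was the mean of the changes at 1, 5 and 8 h. A probe was upward with an early change of at least 0.4 and a 23 h change of at least 1 in both strains, and downward with an early change of at most -0.4 and a 23 h change of at most -1 in both. The 23 h change in PHO84c minus that in WT had to lie between -1.25 and 1.25. This left 24 upward probes, 0.415% of the complete probes, and 32 downward probes, 0.553%. After quantile normalization the rule left 7 and 4. Changes from 0 h chose the members, so they are described here and carry no test.

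Total RNA of Saccharomyces cerevisiae was compared on Agilent dual-colour yeast expression arrays, with 8 samples of PHO84c and 8 of WT. By the labels, PHO84c has an abundant PHO84c phenotype and the study concerns cells rich in high-affinity phosphate transporters. How the strain was built is not given in the sources used here. Both strains were moved from logarithmic growth into synthetic complete medium with 0.5 mM phosphate, and each gave 4 samples before the time course (0 h) and a single sample at each of 1, 5, 8 and 23 h. All arrays of a strain bear the name of that strain's own slide image, so strain and slide cannot be told apart. Every culture had the same medium, so phosphate supply, growth and hours in culture cannot be told apart. No label says that the 0 h samples were separate cultures, and the tests below therefore measure a spread that may be technical.

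Between 6125 and 6231 of the 6255 probes had a value in a sample. Over probes, the SD of the log2 values was at most 0.142 in the 8 samples at 0 h, at most 0.464 at 1, 5 and 8 h, and 1.68 and 1.54 at 23 h in PHO84c and WT. Values are ratios to 0 h samples of the same strain, with no level, so PHO84c and WT levels could not be set side by side and mating type markers could not be checked. No probe was listed under PHO84. A gene name was listed for 1608 probes, and 13 of the 56 members had one (23.2%, against 25.8% of the complete probes). Names need care. The 51 complete probes listed under cytosolic ribosomal protein names, a family usually regulated as a unit, had an SD of 1.71 in PHO84c and 1.56 in WT at 23 h, as wide as all complete probes (1.69 and 1.55). A gene name below stands for the probe listed under it.

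As background, yeast cells that meet fresh medium first adjust transcripts for growth, above all those for ribosomes and their assembly, and change them again when a nutrient runs short and division slows. Phosphate shortage adds the PHO pathway, in which the transcription factor Pho4 enters the nucleus and turns on phosphatases and high-affinity transporters such as Pho84. The probes described here are those whose early and late movements had the same sign.

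Keeping the early direction was the less common course. Of 257 probes that were early up in both strains (4.44% of complete probes), 30 were high at 23 h in both (11.7%), 97 were low (37.7%) and 130 were neither. Of 277 probes early down in both (4.79%), 33 were low at 23 h in both (11.9%), 137 were high (49.5%) and 107 were neither. Among the 5253 probes that were neither early up nor early down in both strains, 17.4% were high and 20.3% low at 23 h. Whether these shares differ was not tested, since all of them rest on the values of the same 0 h samples. Over all complete probes the early and 23 h changes correlated at Pearson r = -0.162 in PHO84c and -0.117 in WT (5787 probes, which share the 0 h samples and the arrays). Medians of the early change, which the threshold bounds in every set, are given as a description. Upward members had a median early change of 0.65 in PHO84c and 0.70 in WT, and the probes that were early up and then low had 0.58 and 0.69. Downward members had -0.61 in both strains, beside -0.63 and -0.78 for the probes that were early down and then high. Among upward members the largest early change was 1.86 in PHO84c and 2.62 in WT. It was 1.37 and 1.26 among the probes that turned low. Among downward members it was 1.23 and 1.83 in size, and among the probes that turned high 2.71 and 3.99. The sets differ in their number of probes, on which such extremes depend.

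**Figure D1:**
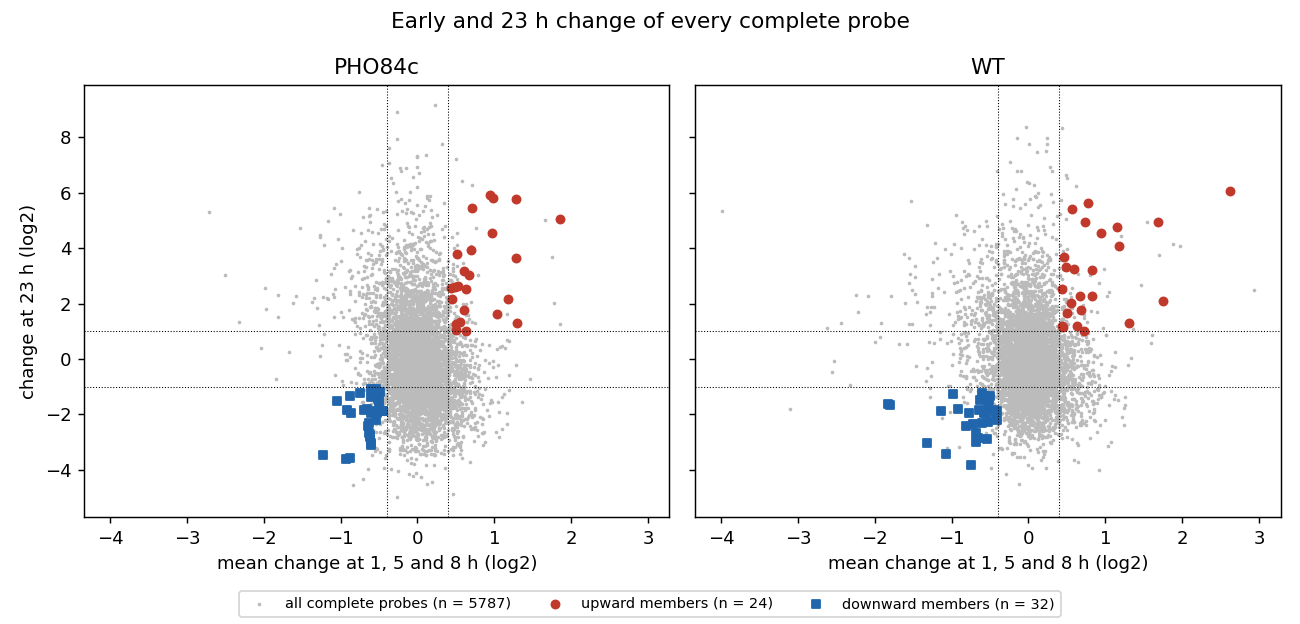
Mean change at 1, 5 and 8 h (x axis, log2) against the change at 23 h (y axis, log2) for each complete probe, in PHO84c and in WT, with upward members as red circles, downward members as blue squares and the thresholds as dotted lines. The 24 upward and 32 downward members are a small part of the probes past the early thresholds, most of which lie on the other side of 0 or near it at 23 h.

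The limit on the strain difference at 23 h kept out 6 upward probes and 1 downward probe. The downward probe was listed as AMS1, the vacuolar alpha-mannosidase, at -4.56 in PHO84c and -3.21 in WT at 23 h. The differences just inside and just outside the limit were -1.09 and -1.26 among upward probes and -1.09 and -1.34 among downward probes. For the early change, the weaker strain of the nearest member was at 0.43 (RPL40A, in PHO84c) and of the nearest probe outside at 0.39 on the upward side, and at -0.42 and -0.39 on the downward side. For 23 h these values were 1.00 and 0.88 upward, and -1.08 and -0.96 downward.

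Upward members gained most after 8 h. Their median change in PHO84c was 0.69, 0.78, 0.58 and 2.62 at 1, 5, 8 and 23 h, and in WT it was 0.59, 0.73, 0.71 and 2.85. All 144 early values were above 0. In 22 of the 24 probes every early change lay above the highest deposited 0 h value of its strain, in both strains. This count is approximate, because changes are taken from a 0 h mean and the 0 h values are as deposited. It includes PRO1, whose WT value at 5 h lay within the 0 h range as deposited. Over all complete probes the 23 h median was -0.19 in PHO84c and -0.21 in WT, and with each sample centred on its median the upward members' 23 h medians were 2.80 and 3.06. The range at 23 h was 1.00 to 5.94 in PHO84c and 1.00 to 6.08 in WT, and 6 probes, none with a listed name, were at 4 or more in both strains. The 23 h change exceeded every early value in both strains in 20 probes, and RPD3 was the only listed name among the other 4.

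**Figure D2:**
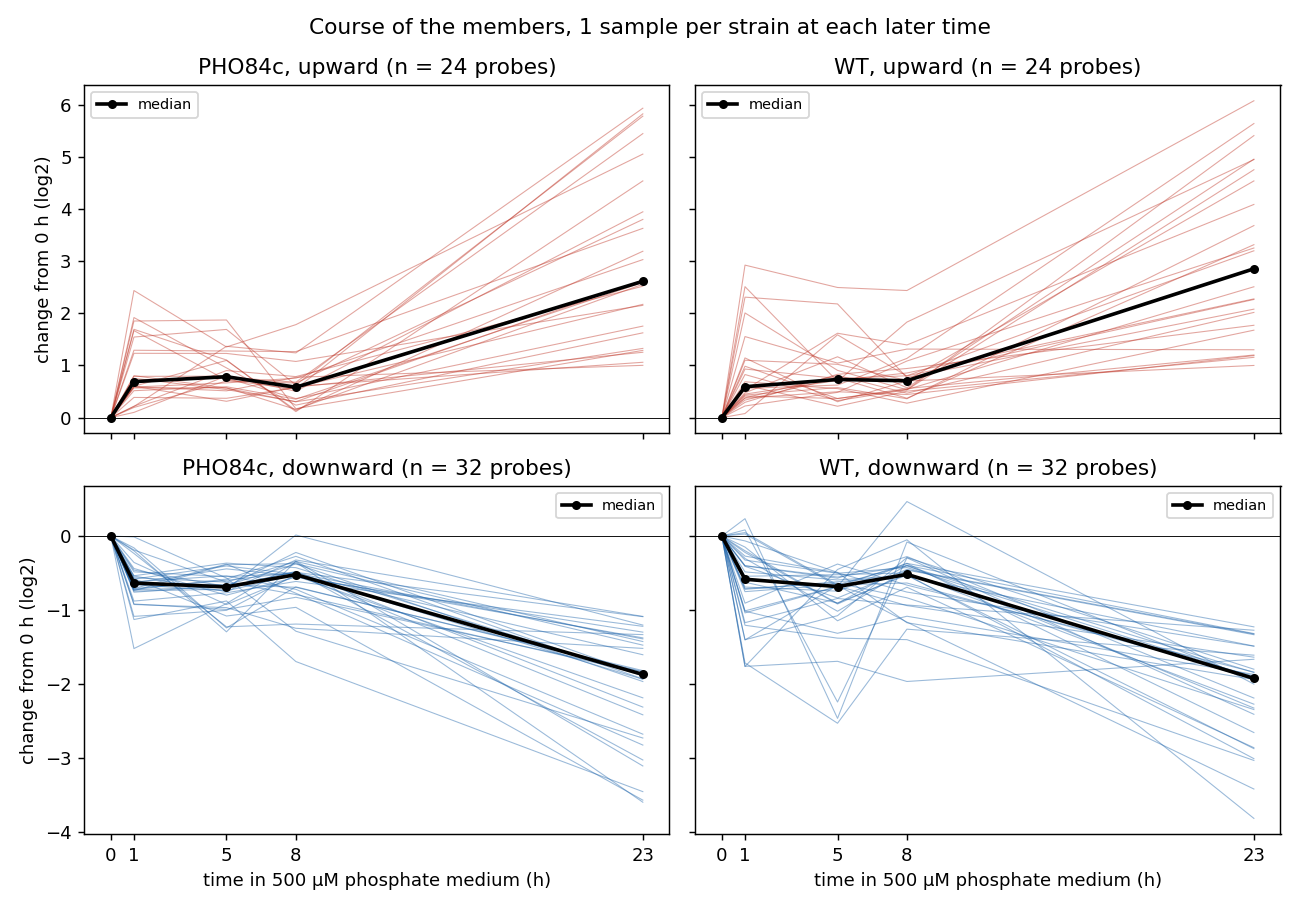
Change from 0 h (y axis, log2) against hours in the 500 µM phosphate medium (x axis) for each upward member (red) and each downward member (blue), in PHO84c and in WT, with the median in black. The upward medians stay between 0.58 and 0.78 up to 8 h and reach 2.62 and 2.85 at 23 h, and the downward medians lie between -0.69 and -0.52 up to 8 h and at -1.87 and -1.92 at 23 h.

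The largest 23 h change of an upward member with a listed name was that of RPS30A, a protein of the small ribosomal subunit made as a fusion to a ubiquitin-like part in mammals. In PHO84c it stood at 0.59, 0.67, 0.76 and 3.03 at 1, 5, 8 and 23 h, after 0 h values of -0.07 to 0.07. Here and below, 0 h values are as deposited, and values at later times are changes. In WT it stood at 0.93, 0.75, 0.80 and 3.20, after -0.17 to 0.17. All 8 later values were above all 0 h values, and the 23 h changes amount to 8.17-fold and 9.19-fold.

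MEU1, the methylthioadenosine phosphorylase of the methionine salvage pathway, was at 0.22, 0.90, 0.79 and 2.52 in PHO84c (0 h, -0.08 to 0.08). In WT it was at 0.22, 0.48, 1.09 and 3.25, with 0 h values of -0.24 to 0.22. Its 1 h value in WT lay at the upper edge of the 0 h samples, and the later values lay above them. RPL40A encodes a large-subunit ribosomal protein fused to ubiquitin, and so supplies both. It was at 0.57, 0.57, 0.16 and 2.56 in PHO84c (0 h, -0.06 to 0.06) and at 0.45, 0.71, 0.86 and 2.28 in WT (0 h, -0.05 to 0.02). Its 8 h value was below the 5 h value in PHO84c and above it in WT.

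SEC61 encodes the pore of the channel that carries new proteins into the endoplasmic reticulum. Its probe was at 0.75, 0.54, 0.31 and 2.64 in PHO84c (0 h, -0.05 to 0.05) and at 0.41, 0.37, 0.54 and 2.51 in WT (0 h, -0.27 to 0.14), a change at 23 h of 6.22-fold and 5.70-fold. PRO1, gamma-glutamyl kinase and the entry to proline synthesis, had the smallest 23 h change of the listed upward probes, at 0.80, 0.56, 0.30 and 1.33 in PHO84c (0 h, -0.17 to 0.16) and at 0.62, 0.22, 0.51 and 1.16 in WT (0 h, -0.26 to 0.16). Its WT replicates 1 and 2 at 0 h (-0.26 and 0.11) had a mean below 0. As deposited, its WT value at 5 h lay within the 0 h range.

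RPD3, the catalytic subunit of a histone deacetylase complex that represses many genes, had the largest early change among the listed upward probes. It was at 1.23, 1.23, 1.08 and 2.15 in PHO84c (0 h, -0.02 to 0.02) and at 1.55, 1.05, 1.31 and 1.30 in WT (0 h, -0.03 to 0.07). In WT the 23 h value lay within its early values, and in PHO84c it lay above all of them. Among unnamed probes, 7957 and 9445 had the largest 23 h changes averaged over the strains. Probe 7957 was at 1.55, 1.69, 0.63 and 5.78 in PHO84c (0 h, -0.09 to 0.10) and at 2.93, 2.50, 2.44 and 6.08 in WT (0 h, -0.02 to 0.03). Probe 9445 was at 1.67, 0.72, 0.55 and 5.83 in PHO84c (0 h, -0.04 to 0.04) and at 0.83, 0.33, 0.53 and 5.41 in WT (0 h, -0.01 to 0.03). Both thus reached far higher at 23 h than any listed member.

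Downward members lay within a narrower range. Their median change in PHO84c was -0.63, -0.69, -0.52 and -1.87 at 1, 5, 8 and 23 h, and in WT it was -0.58, -0.68, -0.52 and -1.92. The 23 h changes ran from -3.59 to -1.08 in PHO84c and from -3.81 to -1.23 in WT, and none was at -4 or below. Of 192 early values 186 were below 0, and 26 of the 32 probes had all 6 below 0. In 24 of the 32 every early change lay below the lowest deposited 0 h value of its strain, in both strains. This count is approximate in the same way as that of the upward members. The 23 h change was beyond every early value in both strains in 29 probes, and APE2 was the listed name among the other 3.

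The lowest listed probe was GIC2, an effector of the polarity GTPase Cdc42 that acts in bud emergence. It was at -0.58, -1.08, -0.96 and -3.56 in PHO84c (0 h, -0.14 to 0.12) and at -1.20, -1.38, -1.40 and -3.03 in WT (0 h, -0.10 to 0.11). All 8 later values were below all 0 h values, and at 23 h the probe was 11.8-fold and 8.16-fold below 0 h. ASF1, a chaperone that hands histones H3 and H4 to assembly factors, was at -0.62, -0.54, -0.72 and -2.67 in PHO84c (0 h, -0.10 to 0.10) and at -0.54, -0.52, -0.50 and -2.27 in WT (0 h, -0.09 to 0.12). Its 3 early values differed little from each other in either strain.

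UTP6, a part of the small-subunit processome that cuts and folds the ribosomal RNA precursor, was at -0.66, -0.74, -0.52 and -2.41 in PHO84c (0 h, -0.03 to 0.03). In WT it was at -0.07, -0.49, -1.17 and -1.94 (0 h, -0.14 to 0.09). Its WT value at 1 h lay among the 0 h samples, whereas PHO84c was already below its own. RPS14A, a small-subunit ribosomal protein, was at -0.58, -0.40, -0.51 and -1.60 in PHO84c (0 h, -0.02 to 0.02) and at -0.40, -0.57, -0.28 and -2.19 in WT (0 h, -0.07 to 0.03). All of its later values were below the 0 h samples.

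DGA1, a diacylglycerol acyltransferase that makes storage lipid, was at -0.54, -0.36, -0.43 and -1.89 in PHO84c (0 h, -0.11 to 0.11) and at -0.40, -0.55, -0.41 and -1.84 in WT (0 h, -0.16 to 0.16). THI4, which makes the thiazole part of thiamine, had the smallest 23 h change in WT among the listed downward probes. It was at -0.56, -0.62, -0.34 and -1.42 in PHO84c (0 h, -0.03 to 0.03) and at -0.69, -0.74, -0.37 and -1.23 in WT (0 h, -0.02 to 0.04). For both probes the later values were below the 0 h samples in each strain.

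APE2, an aminopeptidase, had the lowest early change of the listed members. It was at -0.23, -1.23, -1.19 and -1.33 in PHO84c (0 h, -0.14 to 0.13) and at -1.76, -1.69, -1.96 and -1.66 in WT (0 h, -0.17 to 0.17). WT was at its 23 h value from 1 h on, while PHO84c was near 0 at 1 h and near its 23 h value from 5 h on. Among unnamed downward probes the largest 23 h changes averaged over the strains were those of 23 and 13283. Probe 23 was at -1.52, -0.91, -0.35 and -3.59 in PHO84c (0 h, -0.15 to 0.13) and at -1.76, -0.45, -0.05 and -3.81 in WT (0 h, -0.04 to 0.02). At 8 h it was near the 0 h samples in WT and still below them in PHO84c. Probe 13283 was at -1.13, -0.88, -1.69 and -3.45 in PHO84c (0 h, -0.11 to 0.10) and at -1.40, -0.67, -1.16 and -3.41 in WT (0 h, -0.25 to 0.32). It stayed well below 0 h throughout.

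**Figure D3:**
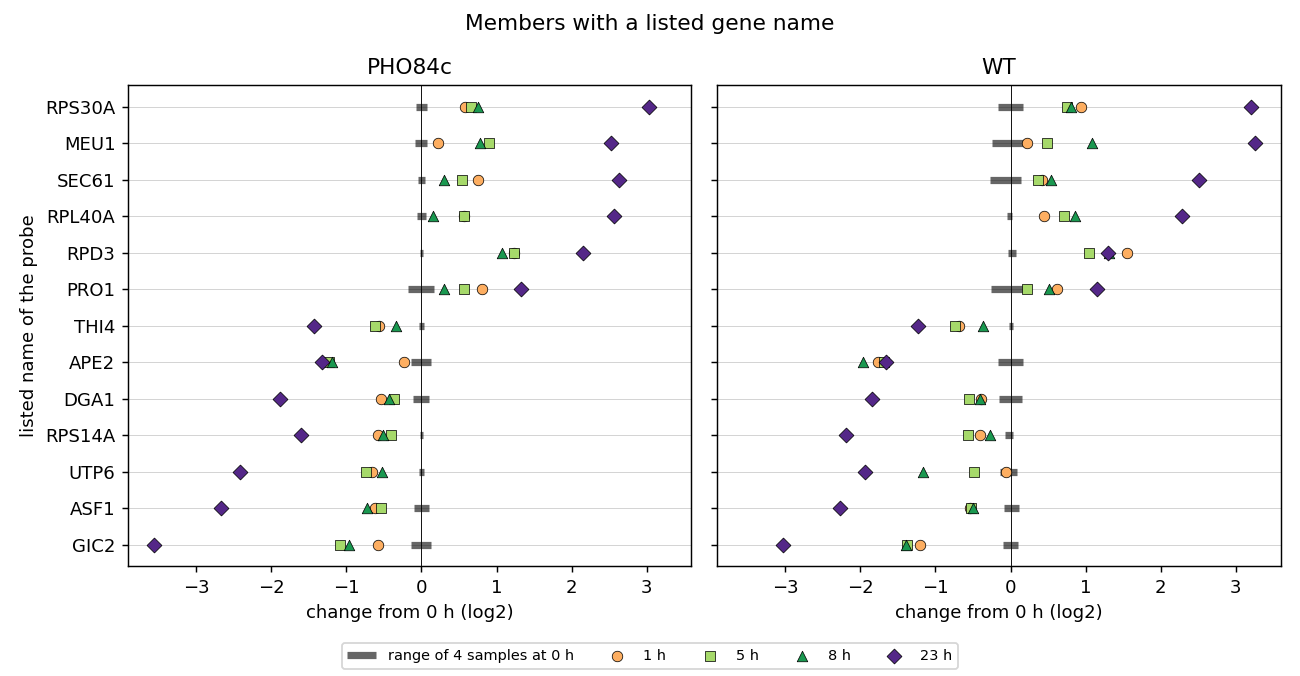
Change from 0 h (x axis, log2) of the 13 members with a listed gene name (y axis) in PHO84c and WT, with a symbol for each later sample and a grey bar for the range of the deposited values of the 4 samples at 0 h. RPD3 and APE2 in WT have 23 h values within their early ones or close to them, and GIC2 and RPS30A have 23 h values far beyond them.

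Some genes that act with the listed members are also on the array. RPS14B, whose protein is nearly identical to that of RPS14A, was at -3.24 in PHO84c and -2.29 in WT at 23 h, but its early change was -0.37 in PHO84c and 0.60 in WT, so it was no member. PRO2 and PRO3, the next steps to proline after PRO1, were at -0.50 and -1.74 in PHO84c and at -0.49 and -1.30 in WT at 23 h, opposite in sign to PRO1. GIC1, the paralogue of GIC2, was at -0.23 in PHO84c and 0.34 in WT at 23 h. Of 8 complete probes with a UTP name, 2 were low at 23 h in both strains and 1 was high. The 7 other than UTP6 had early changes between -0.39 and 0.40 in either strain. These relatives were chosen after the members were known, few probes of any kind are members, and the doubt about listed names applies to them too.

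Over the gene lists, member counts were between 0 and 3 a list, where 0.415% of all complete probes were upward members and 0.553% downward ones. The cytosolic ribosomal protein list had 2 upward members (RPS30A and RPL40A) and 1 downward member (RPS14A) among its 51 complete probes, with 10 high and 11 low at 23 h in both strains, against 18.7% high and 20.6% low over all complete probes. Its median at 23 h was -0.14 in PHO84c and -0.13 in WT, beside -0.19 and -0.21 for all complete probes. Ribosome biogenesis had UTP6 as its single member among 48 probes, 10 of them high and 9 low, and medians of -0.23 and -0.07. The list of chromatin factors and deacetylases held RPD3 upward and ASF1 downward among 25 probes, of which 10 were high and 2 low at 23 h, with medians of 0.63 and 0.50. The secretory pathway list had SEC61 among 25 probes (6 high, 8 low, medians -0.17 and -0.45), and amino acid synthesis had PRO1 among 25 (6 high, 3 low, medians 0.41 and -0.02). The other 12 lists had no member. Among them, the PHO regulon had 6 complete probes, of which none was early up or early down in both strains and 1 was high at 23 h in both, with a median of -0.41 in PHO84c and -0.38 in WT. The list of general stress genes, with 24 probes, had 1 high and 7 low, and medians of -0.98 and -0.65.

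Members differed in their order within the early phase, which the rule did not use. The 8 h change minus the 1 h change was tested in each strain with limma over all probes, and a probe was called at a difference of 2-fold or more with a p under 0.05 after Benjamini-Hochberg adjustment. In PHO84c 7 members were called, 5 upward and 2 downward, where 2.11% of all 6111 probes tested were called. In WT 6 were called, 2 upward and 4 downward, where 1.96% of 6189 were. The rule asks for large early changes, which leaves more room for a 2-fold difference than most probes have. Of the 5 upward calls in PHO84c, 4 were lower at 8 h than at 1 h, and both upward calls in WT were lower at 8 h. Over all probes, 95 of the 129 calls in PHO84c and 41 of the 121 in WT were lower at 8 h. Across all 24 upward members the median of 8 h minus 1 h was -0.22 in PHO84c and -0.09 in WT, and across the 32 downward members it was 0.09 and -0.05.

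Probes 14122, 5330 and 23 were called in both strains. Probe 14122 stood at 0.12 at 8 h and 1.69 at 1 h in PHO84c, a difference of -1.58 ± 0.0994 (SE, limma adjusted p = 0.000847), and at 0.53 and 2.01 in WT, a difference of -1.47 ± 0.0994 (limma adjusted p = 0.000358). At 23 h it stood at 4.54 and 4.75. Probe 5330 had a like early decline, by -1.68 ± 0.206 in PHO84c and -1.54 ± 0.206 in WT (limma adjusted p = 0.0039 and 0.00653), and ended at 1.29 and 2.08. Probe 23 rose back toward 0 h by 1.17 ± 0.180 in PHO84c and 1.71 ± 0.180 in WT (limma adjusted p = 0.00808 and 0.00251). UTP6 was the only listed member called. It was lower at 8 h than at 1 h in WT by -1.10 ± 0.134 (limma adjusted p = 0.00423), and PHO84c had a difference of 0.14. Probe 12598 was lower at 8 h in PHO84c by -1.27 ± 0.119 (limma adjusted p = 0.00188), being at -1.28 at 8 h and -0.01 at 1 h, and its WT difference of -0.97 missed the 2-fold limit. The other calls were those of upward probes 10340 (-1.68), 9445 (-1.12) and 7102 (1.03) in PHO84c and of downward probes 640 (1.503) and 13676 (1.11) in WT.

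**Figure D4:**
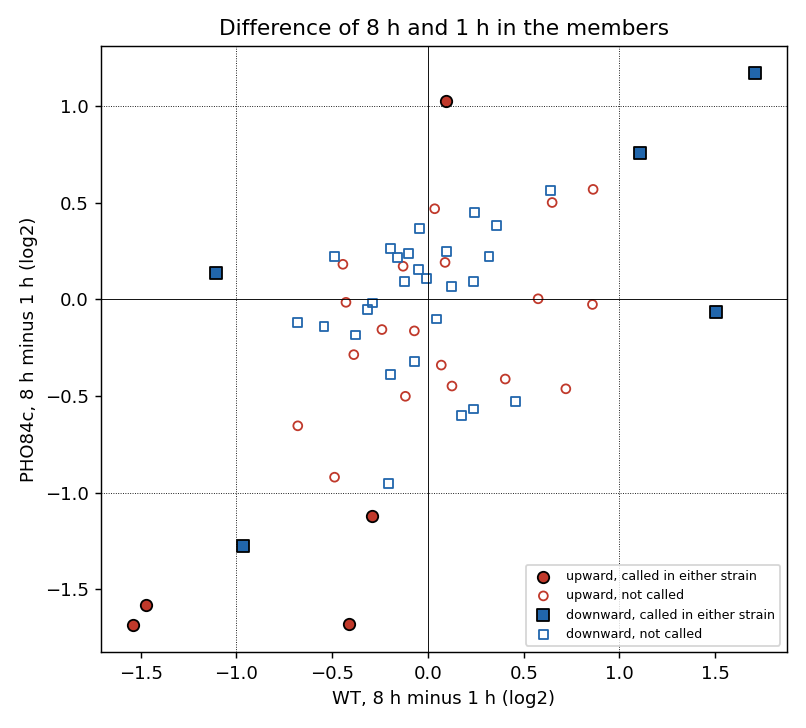
Change at 8 h minus change at 1 h in WT (x axis, log2) and PHO84c (y axis, log2) for each member, filled where called in either strain, with dotted lines at the 2-fold limit. The filled points are 5 upward and 5 downward members, and 3 of them (14122, 5330 and 23) are called in both strains.

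Between the strains, members were close by their medians. PHO84c minus WT had a median at 1, 5 and 8 h of -0.04, 0.08 and -0.17 in upward members and -0.06, 0.13 and 0.04 in downward members. At 8 h, 18 of the 24 upward members were lower in PHO84c than in WT, as were 2982 of the 5787 complete probes. At 23 h, where the rule limits the difference, the medians were 0.03 and 0.06. Across probes, PHO84c and WT correlated at Pearson r = 0.751 in the early change and 0.942 at 23 h in the 24 upward members, and at 0.553 and 0.768 in the 32 downward members, beside 0.669 and 0.935 over all complete probes. Each correlation is a description, since the rule holds both strains to one side and the same array block number served each time in both strains.

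**Figure D5:**
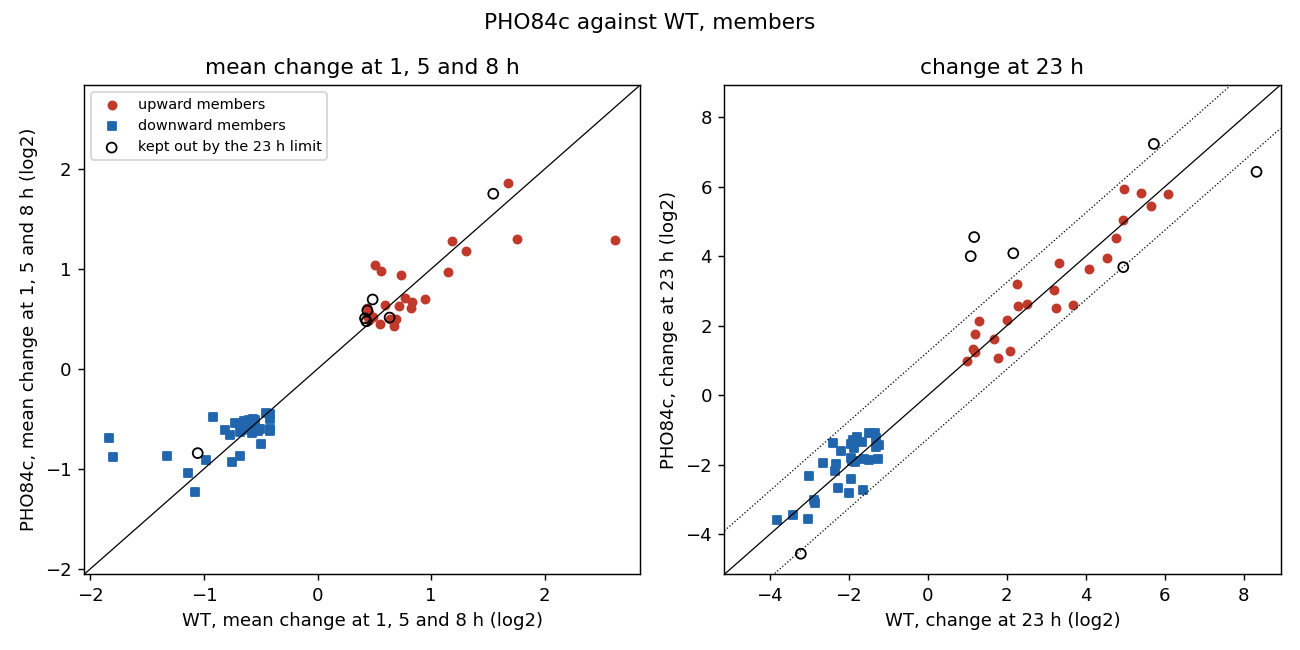
PHO84c (y axis, log2) against WT (x axis, log2) for the mean change at 1, 5 and 8 h and for the change at 23 h, with upward members in red, downward members in blue and the 7 probes kept out by the 23 h limit as open circles, beside the line of equality and, at 23 h, dotted lines at ±1.25. At 23 h the members follow the line of equality inside the limit, and in the early change a few members with large WT values lie nearer to 0 in PHO84c.

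The strain difference at 1, 5 and 8 h was tested over all probes with the same threshold. At 1 h 4 members were called, 2 in each direction set (2.4% of all probes tested were called). At 5 h 3 were called, all downward members (0.735%), with an unadjusted limma p under 0.05 in 6 of the 24 upward members and in 1031 of all 5983 probes, and at 8 h 2 were called (0.756%). APE2 was the listed member among them. Its 1 h change was higher, that is nearer to 0, in PHO84c than in WT by 1.52 ± 0.250 (SE, limma adjusted p = 0.0148). Probe 7957 was lower in PHO84c at 1 h (-1.38 ± 0.143, limma adjusted p = 0.00372) and at 8 h (-1.81 ± 0.143, adjusted p = 0.00539), while at 23 h its changes of 5.78 and 6.08 differed by -0.29. Probe 266 was at -0.16, -1.24, -0.69 and -1.83 in PHO84c and at -1.71, -2.53, -1.26 and -1.61 in WT, and the difference was called at 1 h (1.55 ± 0.132, limma adjusted p = 0.00195) and at 5 h (1.29 ± 0.132, adjusted p = 0.00811). In these 3 probes the called early change was the larger in WT, and the rule itself keeps the strains close at 23 h. Probe 10340 differed the other way at 1 h, at 1.92 in PHO84c and 0.69 in WT (1.23 ± 0.118, limma adjusted p = 0.00275). Each call rests on 1 later sample per strain, on that strain's own slide. The 3 calls at 5 h became 1 without WT replicate 1 or without WT replicate 2, and the 2 calls at 8 h became 1 without either of these. After quantile normalization none of the 5 tests called any probe. With the 0 h replicate number as a block across the strains, none of the member calls for the strain difference held.

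Every change of a strain rests on the same 0 h samples, so an error in them would move the early and the 23 h value of a probe alike. The spread of those samples was measured in the members. The absolute difference of replicates 1 and 2 had a median of 0.0952 in PHO84c and 0.0875 in WT in upward members, and of 0.112 and 0.113 in downward members, beside 0.0922 and 0.104 over all complete probes. The largest such difference was 0.331 in PHO84c and 0.505 in WT. The smallest 23 h changes of a member were 1.00 in both strains, and the smallest early changes were 0.43 in PHO84c and, in size, 0.42 in WT. For replicates 3 and 4, in the other dye, this median was 0.137 in PHO84c and 0.107 in WT in upward members. In downward members it was 0.158 and 0.124, beside 0.100 and 0.114 over all complete probes. All of these medians were above those of replicates 1 and 2. An unnamed downward probe stood apart, with replicates 3 and 4 at -2.20 and 0.79 in PHO84c. In each strain replicates 1 and 3 shared an array block, as did 2 and 4. Replicates 3 and 4 are therefore not an independent measure of the spread. An error common to both 0 h replicates of a strain cannot be seen in these values.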

How the data were processed

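RNA from 8 PHO84c and 8 WT samples was hybridised to Agilent dual-colour yeast arrays and read with SpotReader, per the labels' protocols. The sources used here do not state the background correction, the normalization or how the 2 scans of a sample were merged. The authors deposited 1 value per probe and sample. These deposited values were taken as log2 ratios: base, reference and centring were inferred, since both 0 h values of a strain and dye have a linear mean of 1.00 (97.8% to 99.97% of probes within 0.05). Later samples were assumed to be ratios to their strain's Cy3 pair. Sample medians lay within 0.0212 of 0, except at 23 h (-0.19 in PHO84c, -0.20 in WT). The number of arrays limits precision, and there were 0 columns of other series. The members and lists were chosen with earlier results of these data known.

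Differences were fitted with limma 3.58.1 in R 4.3.3 (lmFit, eBayes) over 16 samples, with a term for each strain at each time and a dye term in each strain. Arrays entered as random blocks (duplicateCorrelation, 0.761, 4 residual degrees of freedom). Probes needed both Cy3 values at 0 h and the later values (strain difference), or the 8 h and 1 h values. Later samples had no replicates and were assumed to vary like those at 0 h. On simulated data with 5787 probes, 95% to 98% of differences of 1.5 and 0% to 1% of those of 0.5 were called, with 0 to 4 false calls. The simulated noise came from the same fit, with the later samples given the spread at 0 h. The simulation therefore cannot show how the tests behave where that assumption fails. Named genes are the members with 1 listed name, called members, and the 2 unnamed probes per direction with the largest 23 h change; all listed names were found in the R64 gene table, used for names alone. Alternatives covered the reference, centring, quantile normalization, dye, array block, thresholds, missing values and each 0 h replicate left out.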

Additional observations from a re-analysis of the deposited data

Results flagged for a closer look

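The strain difference in the change from 0 h passed the test at 9 member and time combinations, 1 of them in a probe with a listed name. Given as PHO84c minus WT on the log2 scale, the differences at 1 h were 1.52 for APE2, 1.55 for probe 266, -1.38 for probe 7957 and 1.23 for probe 10340. At 5 h they were 1.29 for probe 266, 1.32 for probe 762 and 1.81 for probe 2845. At 8 h they were -1.24 for probe 640 and -1.81 for probe 7957. Each rests on 1 later sample per strain, and strain and slide cannot be told apart. None of the 9 held with the 0 h replicate number as a block across the strains.

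Probe 762 was at -0.36, -0.92, -0.54 and -1.37 in PHO84c and at 0.08, -2.24, -0.29 and -2.41 in WT at 1, 5, 8 and 23 h. Probe 2845 was at -0.64, -0.66, -0.69 and -1.82 in PHO84c and at 0.23, -2.46, -0.08 and -1.95 in WT. In both, the WT early change came mostly from the 5 h sample. Probe 640 was at -0.71, -0.38, -0.77 and -2.82 in PHO84c and at -1.04, -0.68, 0.47 and -2.0 in WT, with the WT value at 8 h above 0.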

How the results depend on the processing

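Quantile normalization, which gives the quiet 0 h samples and the wide 23 h samples one spread by its construction, left 7 upward and 4 downward members and 0 calls in each of the 5 tests, over members and over all probes. The upward members numbered 48 at an early threshold of 0.3, and the downward members 21 without 5 h in the early mean and 20 at a 23 h threshold of 1.5. Leaving out single 0 h replicates gave 22 to 29 upward and 30 to 32 downward members, with 20 to 24 and 29 to 32 shared. With no fold limit, the strain difference at 1 h was called in 8 members and 682 probes (4 and 144 with it), at 5 h in 84 probes and at 8 h in 71 (44 and 45 with it). For 8 h minus 1 h these counts were 13 and 1233 in PHO84c (7 and 129 with it) and 14 and 452 in WT (6 and 121 with it). Same-numbered 0 h samples of the strains correlated at -0.240 to -0.160, and 0 of 4 correlated best with their own number. The 0 h values of a strain and dye nearly mirror each other, so these correlations cannot show whether the numbers pair samples. With the replicate block, which applies to the strain difference alone, members called at 1, 5 and 8 h were 0, 0 and 0, and probes called were 20, 1 and 0. With single 0 h replicates left out, member calls for the strain difference were 4 to 5 at 1 h, 1 to 3 at 5 h and 1 to 2 at 8 h, over 129 to 145, 18 to 40 and 31 to 44 probes. At 5 h the count over all probes was 20 and 18 without PHO84c replicates 1 and 2, and 23 and 21 without WT replicates 1 and 2. The counts for 8 h minus 1 h stayed at 7 and 6 members. Centring on medians, a common or absent dye term, no array block, and complete probes alone each kept every count of calls within 1.5 times. The 23 h medians of the downward members were -1.68 in PHO84c and -1.72 in WT after median centring. After quantile normalization those of the upward members were 0.58 and 0.67 and those of the downward members -0.43 and -0.50. Ratios carry no signal over background, so dim probes could not be told from bright ones.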
